A study of Caenorhabditis elegans with 2 samples.

Results

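The gene nhr-120 of the nematode Caenorhabditis elegans lies on chromosome X with 6 protein-coding neighbours within 43.0 kb, in the order clec-266, kqt-1, aexr-2, aexr-1, nhr-120, C56E10.3 and nhr-173. These 7 of 19973 annotated protein-coding genes span X 6617393 to 6660376 (ce11). They were chosen by position around nhr-120, and every peak with its summit in the genes, in the 67391 bp to their left or in the 69624 bp to their right was read from the deposited lists. The span held 40 of the 60719 ranked summits of replicate 1 and 30 of the 58785 of replicate 2. In the first and second joint lists, made from both replicates, it held 40 of 115573 and 49 of 114571.

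All samples were 1 kind of animal: whole young adults of strain OP415 at 64 hours, synchronised by bleaching and L1 starvation. The strain carries the transgene wgIs415, in which nhr-120 is fused to TY1, EGFP and 3xFLAG, together with unc-119(+), in an unc-119(tm4063) background. Sonicated chromatin of 2 biological replicates was pulled down by the GFP tag. There is no comparison group, and the control experiment named in the labels was not analysed here, so each value is a description set beside its own list.

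NHR-120 belongs to the nuclear hormone receptors, transcription factors that bind DNA through a zinc finger domain and, in many members, bind a small ligand through a second domain. The family is much larger in nematodes than in mammals, and nhr-173 is a second member of it. Tagged genomic clones such as those used in transgenes of this type usually carry neighbouring genes as well. The labels give neither the ends of the clone nor its copy number. Reads from the transgene and from the worms' own copy map to the same coordinates and cannot be told apart.

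The 5 sites where both replicates had strong signal are shown first, since the description of the locus turns on them. Each sequence covers 121 bases centred on the summit in the joint lists, on the plus strand of ce11 as given by RefSeq. Capitals mark a match to TGATAA or GAGAGA on either strand. Site 1 is in an intron of nhr-120 (X:6638149-6638269), site 2 in an exon of nhr-120 (X:6639283-6639403), and site 3 between nhr-120 and C56E10.3 (X:6643622-6643742). Site 4 is between C56E10.3 and nhr-173 (X:6653298-6653418), and site 5 is in nhr-173 (X:6656783-6656903). For site 4 the sequence holds the summit of replicate 2 only, as that of replicate 1 is at 6653482.
Site 1: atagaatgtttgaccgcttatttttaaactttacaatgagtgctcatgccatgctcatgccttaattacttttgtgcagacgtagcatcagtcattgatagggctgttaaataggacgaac
Site 2: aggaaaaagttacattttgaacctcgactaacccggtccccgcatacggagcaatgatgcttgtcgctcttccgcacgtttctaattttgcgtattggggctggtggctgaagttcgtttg
Site 3: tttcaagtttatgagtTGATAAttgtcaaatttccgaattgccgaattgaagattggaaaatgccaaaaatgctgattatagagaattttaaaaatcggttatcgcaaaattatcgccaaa
Site 4: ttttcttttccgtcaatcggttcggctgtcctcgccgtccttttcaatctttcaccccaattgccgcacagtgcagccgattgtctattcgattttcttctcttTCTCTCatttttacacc
Site 5: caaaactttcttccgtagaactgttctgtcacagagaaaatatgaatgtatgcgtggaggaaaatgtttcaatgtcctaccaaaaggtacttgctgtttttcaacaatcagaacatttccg

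None of the 5 windows held AGGTCA, the hexamer core recognised by many nuclear hormone receptors, on either strand. Of 114571 windows of the same length in the second joint list, 3.41% held it. TGATAA, a form of the word bound by GATA factors, was in site 3 and in 9.31% of all windows, and GAGAGA was in site 4 and in 7.14% of all windows. None of the 5 windows held both TGATAA and GAGAGA. GC content was 38.0%, 48.8%, 29.8%, 45.5% and 37.2% in sites 1 to 5, against a median of 39.7%. No 30-base word of the 5 windows occurred more than once in the genome. In the annotated proteins, the codons of the cysteine pattern of the zinc finger domain ran from 6638088 to 6639335 across introns in nhr-120 and from 6656569 to 6657251 in nhr-173. Site 2 shares 21 bases with these codons of nhr-120, and site 5 shares 86 bases with those of nhr-173.

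Signal is the authors' value for each peak, on a scale that is not stated, and can be compared only within a list. A summit is called raised here when its signal is above the 95th percentile of its own list, which is 30.4 in replicate 1 and 32.1 in replicate 2. The medians of those lists are 16.7 and 17.4. By construction 5.0% of all summits are raised in each of the 4 ranked lists.

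Around nhr-120 many summits stood above most of their list, and they lay among ordinary ones. In the span, 10 of 40 summits were raised in replicate 1 (25%, 95% Wilson interval 14.2 to 40.2%) and 10 of 30 in replicate 2 (33.3%, 19.2 to 51.2%). In the joint lists 11 of 40 and 13 of 49 were raised, against the same 5.0%. The flank to the left of clec-266 had 2 of 44 raised in replicate 1 and 3 of 36 in replicate 2. The flank to the right of nhr-173 had 3 of 44 and 1 of 39. Both flanks were thus near the share of the whole list. The median signal of the span, raised summits included, was at the 60th percentile in replicate 1 and at the 88.8th in replicate 2. The lowest signal there was 2.41 in replicate 1 and 9.61 in replicate 2, so the replicates also differed in the weak summits listed. Intervals cover the counting of summits only, because the lists give no read counts and depth is unknown.

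**Figure D1:**
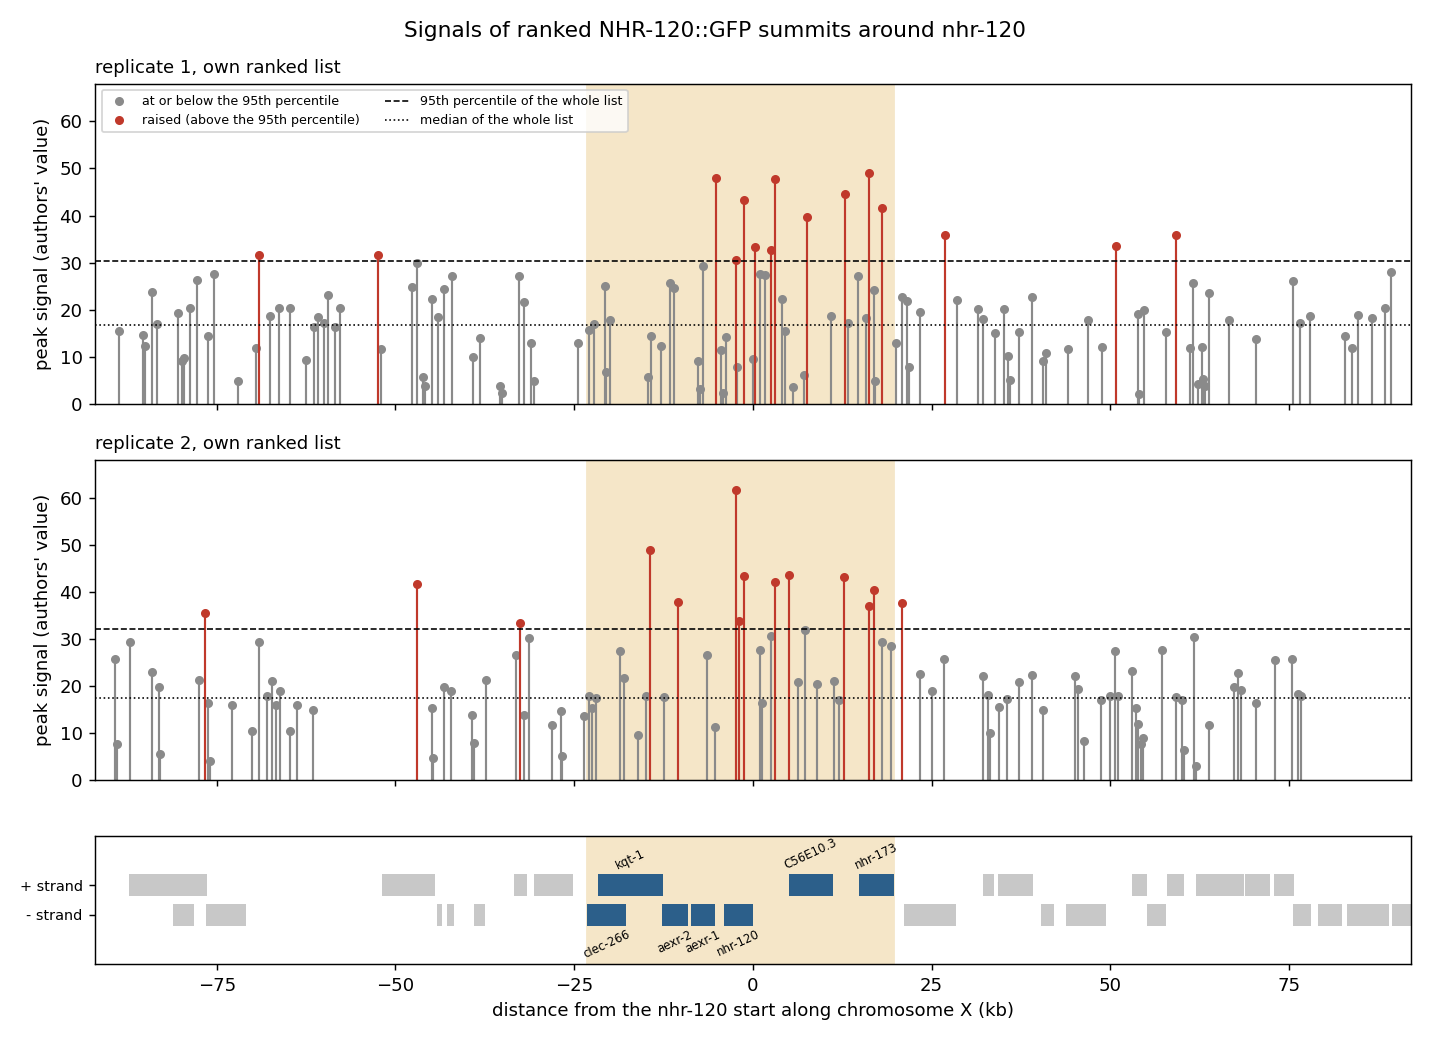
Signal of every ranked summit (vertical axis, the authors' value) against distance from the nhr-120 start along chromosome X in kb, for each replicate's own list, with protein-coding genes below (blue for the 7 genes, grey for flanking genes) and the span shaded. Red points are above the 95th percentile of the list (30.4 and 32.1): 10 of 40 summits in the span in replicate 1 and 10 of 30 in replicate 2.

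Within the gene bodies alone, 5 of 27 summits were raised in replicate 1 (18.5%) and 7 of 22 in replicate 2 (31.8%), or 12 of 49 together (24.5%). Places listed in both replicates count in each, so the 49 are not independent. By gene, 3 of 7 had a raised summit in replicate 1, 4 of 7 in replicate 2, and 2 of 7, nhr-120 and nhr-173, in both. Of the 11723 protein-coding genes with a summit in both replicates, 14.1% had a raised summit in replicate 1, 13.9% in replicate 2 and 4.58% in both. These shares are not matched for the number of summits, and a gene with more summits can more easily hold a raised one. The 7 genes had 2 to 6 summits each in a replicate. Of the 25 flanking genes, 17 had a summit in both replicates, and 0 had a raised one in both.

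The receptor gene nhr-120 (WBGene00003710, X 6636561 to 6640620, minus strand) held the highest signal within the span in replicate 2 (61.7) and in both joint lists (89.3). In replicate 1 its 5 summits had signals of 14.3, 30.6, 7.95, 43.4 and 9.67 in order of position. In replicate 2 its 3 summits had 61.7, 33.9 and 43.3. All 3 were raised in replicate 2, while in replicate 1 2 were raised and the other 3 lay below the list's median. The summit in replicate 1 at the start of the gene, 27 bp inside it, had 9.67, and the next summit upstream, 328 bp before the start, had 33.4.

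The second receptor gene, nhr-173 (WBGene00016975, X 6655528 to 6660376, plus strand), was the other gene raised in both. Its 5 summits in replicate 1 had signals of 18.3, 49.0, 24.3, 4.81 and 41.7. Its 4 summits in replicate 2 had 36.9, 40.4, 29.4 and 28.5. All 4 in replicate 2 were above the 90th percentile of that list (28.3), and 1 of the 5 in replicate 1 was at the 4.88th percentile.

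C56E10.3 (WBGene00016976, X 6645654 to 6651767, plus strand), annotated by RefSeq as a coiled-coil domain-containing protein, lies between the receptor genes. It had signals of 3.73, 6.18, 39.8 and 18.8 in replicate 1 and of 20.9, 31.8 and 20.5 in replicate 2. Its raised summit of replicate 1 had no partner within 150 bp in replicate 2. A summit of replicate 2 with a signal of 43.5 lay 25 bp before the C56E10.3 start and had no partner in replicate 1.

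The G-protein coupled receptor genes aexr-1 and aexr-2 had few summits. In aexr-1 (WBGene00016089, X 6631927 to 6635273, minus strand) signals were 9.21, 3.22 and 29.3 in replicate 1 and 26.5 and 11.4 in replicate 2, none of them raised. In aexr-2 (WBGene00016090, X 6627963 to 6631537, minus strand) they were 25.7 and 24.7 in replicate 1 and 17.6 and 37.8 in replicate 2. Only the last, of replicate 2, was raised. Between aexr-1 and nhr-120, replicate 1 had a summit of 48.0 in the non-coding RNA gene C25B8.10, where replicate 2 listed none.

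At the left end, clec-266 looked like the rest of the list in each replicate, while kqt-1 did so in replicate 1 only. The lectin gene clec-266 (WBGene00016088, X 6617393 to 6622915, minus strand) had 5 summits in each replicate, with medians of 16.9 and 17.9 and highest signals of 25 and 27.5. The potassium channel gene kqt-1 (WBGene00002233, X 6619012 to 6627995, plus strand) overlaps it, and they share summits, which cannot be assigned to either. In kqt-1 the 6 summits of replicate 1 had a median of 13.5 and a highest signal of 25. Its 5 summits in replicate 2 had a median of 21.7, and 1 was raised, with 48.8. The summit of replicate 1 matched to that one, 74 bp away, had 14.5. In each joint list 1 of 8 summits in clec-266 and 2 of 10 in kqt-1 were raised, shared summits included, against 5.0%.

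**Figure D2:**
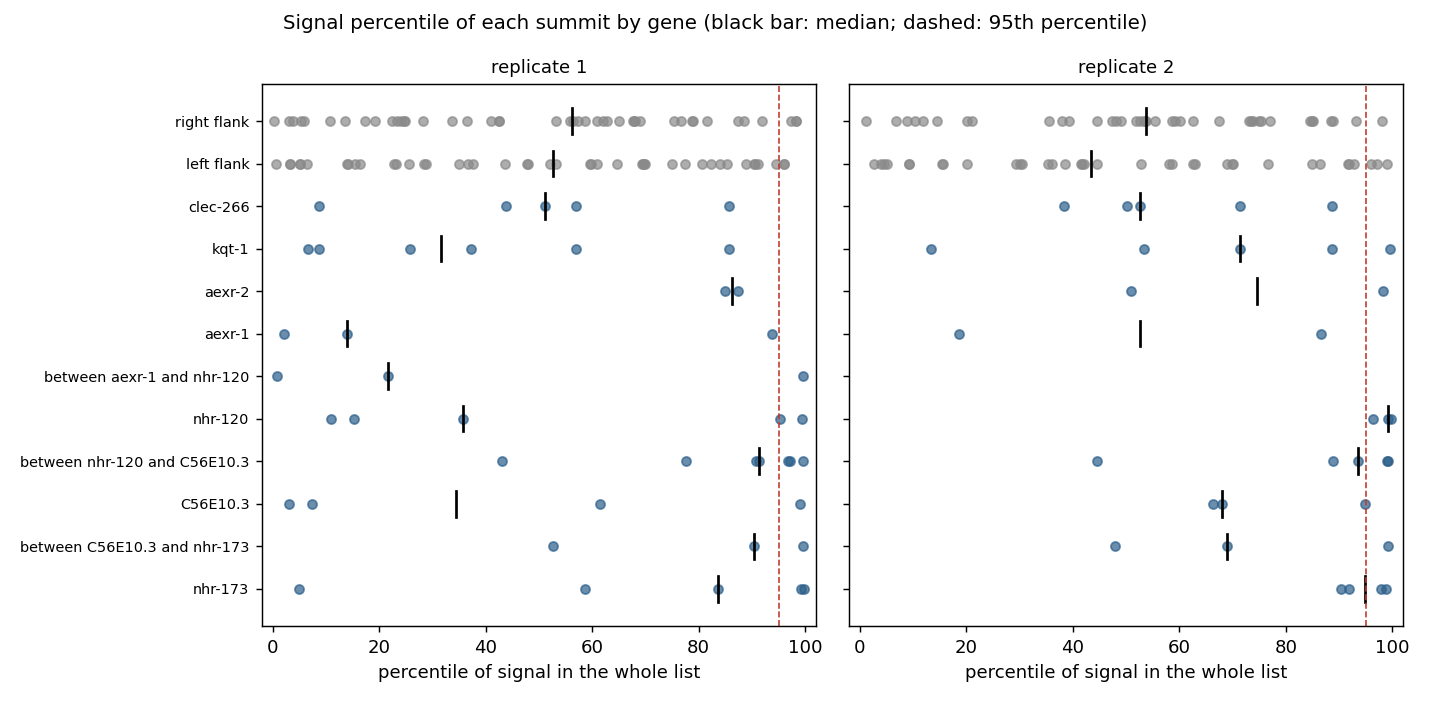
Percentile of each summit's signal in its own list (horizontal axis) by gene, by the sequence between genes and by flank, for each replicate. Black bars are medians and the dashed line is the 95th percentile. In nhr-120 all 3 summits of replicate 2 lie to the right of the line and 2 of 5 do in replicate 1, while clec-266 has none in either.

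Raised summits also lay between genes, in some intervals and not in others. Between nhr-120 and C56E10.3 (5033 bp) the median signal was 27.7 over 7 summits in replicate 1 and 30.6 over 5 in replicate 2, with 3 and 2 raised. Between C56E10.3 and nhr-173 (3760 bp), 1 of 3 was raised in each replicate. Between aexr-1 and nhr-120 (1287 bp), replicate 1 had a median of 11.5 over 3 summits, 1 of them raised, replicate 2 had no summit, and 0 of 2 were raised in each joint list. Between aexr-2 and aexr-1 (389 bp) no list had a summit. The replicates differed in how nhr-120 compared with the sequence before its start: the median inside the gene was lower in replicate 1 (14.3 against 27.7) and higher in replicate 2 (43.3 against 30.6).

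Outside the span the nearest genes differed among themselves, and 0 of the 6 had a raised summit in both replicates. To the left, medians in replicates 1 and 2 were 4.93 and 11.7 in C25B8.8, 24.5 and 26.5 in the protease gene cpr-6 (the 82.7th and 86.5th percentiles, with nhr-173 at the 83.7th and 94.9th), and 14.1 and 7.85 in F23G4.1. To the right they were 20.6 and 22.5 in the receptor gene nhr-137 (the 70.2nd and 74.9th percentiles). The collagen gene col-172 had no summit in replicate 1 and a median of 18.1 in replicate 2. F38B6.4 had medians of 15.4 and 19.0. Of these 6 genes, cpr-6 had 1 raised summit in replicate 2 (33.3) and nhr-137 had 1 in replicate 1 (35.9).

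No single start or end of the raised signal could be read with a running median of 7 summits and the 95th percentile as the limit. In replicate 1 the longest run above the limit was 1 summit, at 6641644, whose own signal of 27.7 was not raised. In replicate 2 it was 3 summits from 6634249 to 6638209, of which only the last was raised. A looser limit, the 75th percentile with a running median of 15 summits, was chosen after seeing the data. It gave a run from 6636435 to 6653482 in replicate 1 (18 summits, 17047 bp), which begins just beyond nhr-120's lower end and stops before nhr-173. That stop was a short dip, as the running median was 18.8 at 6653973 and 6655331, under the limit of 21.7. From 6656390 in nhr-173 to 6661431 past the span it was again just above the limit, at 21.8 to 22.1. In replicate 2 the looser limit gave 6628133 to 6658641 (21 summits, 30508 bp), from aexr-2 into nhr-173. In the joint lists the runs were 6635460 to 6660539 and 6637424 to 6646942. At this setting the runs of all 4 lists cover the sequence from 6637424 to 6646942, which holds most of nhr-120, its upstream sequence and the start of C56E10.3. The first joint list has no summit from 6644696 to 6656843, so its run passes over the C56E10.3 start without a summit there. The edges outside it moved with the list. With the 75th percentile and 7 summits, the longest run of the second joint list (13 summits) lay outside the span, in the left flank from 6595238 to 6609752.

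Runs of at least as many summits were counted over the genome with the same looser limit, which was itself picked with this locus in view. There were 3 of 409 runs in replicate 1, 4 of 384 in replicate 2, 10 of 798 in the first joint list and 49 of 850 in the second, the ones here included. Pairs of such runs that overlapped between the replicates numbered 2, this one and one in the right arm of chromosome V. In windows of 40 kb placed every 10 kb, the richest over these genes (X 6630001 to 6670000) had 11 of 37 summits raised in replicate 1 (29.7%) and 10 of 25 in replicate 2 (40%). The smaller of these shares, 29.7%, was reached in both replicates by 7 of 9507 windows (0.0736%), this one included. They lay at 4 separate places on chromosomes I, V and X, and some had less than 40% raised in replicate 2. Windows with at least 50% of summits raised in both numbered 0.

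Across the span, 11 sites matched between the replicates within 150 bp, which is 27.5% of the summits of replicate 1 and 36.7% of those of replicate 2. These shares were 29.5% and 34.7% in the flanks and 39.3% and 40.6% over the genome. Of these, 5 were raised in both (45.5%), against 2.72% of the 23873 matched sites of the genome and 0 of the 26 matched sites of the flanks. Spearman's correlation of the signals was 0.1 over the 11 sites, 0.597 over the 26 of the flanks and 0.265 over the genome, as a description, since sites of a list share its libraries.

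Site 1 had signals of 30.6 in replicate 1 and 61.7 in replicate 2, the largest gap of the 5. It lies in an intron, 2411 bp into nhr-120, with a joint signal of 89.3. In replicate 1 it was just inside the limit of 30.4.

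Site 2, in an exon 1277 bp into nhr-120, had nearly equal signals of 43.4 and 43.3. Its joint signal was 87.8. Site 3, 3062 bp before the nhr-120 start and 1972 bp before the C56E10.3 start, had 47.7 and 42.1 and a joint signal of 78.6. The genes are divergent, so it lies upstream of both.

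Site 4, 2170 bp before the nhr-173 start, had 44.6 and 43.1, with summits 124 bp apart in the replicates. The summit of replicate 1, at 6653482, is outside the sequence shown. It is nearer to a weaker summit of the second joint list at 6653572 (signal 21.9) than to the one used. The joint signal of site 4 was 76.9 in the second joint list, and the site was missing from the first. Site 5 had 49.0 and 36.9 and a joint signal of 80.9, at a summit in an exon 1315 bp into nhr-173. The summits of the replicates lie in the intron beside it, where the non-coding RNA gene C56E10.6 is also annotated.

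**Figure D3:**
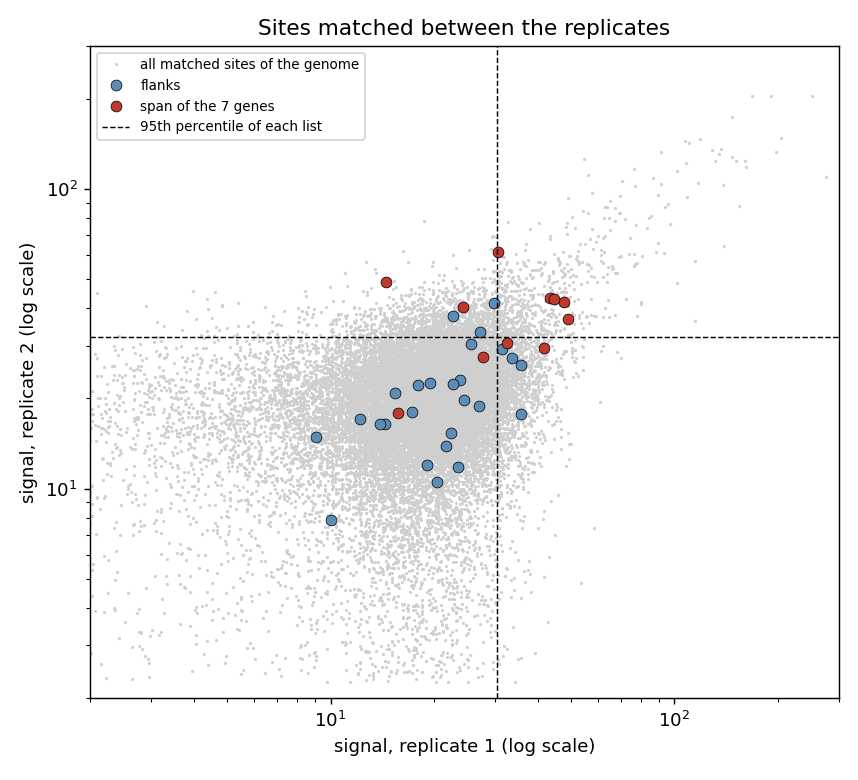
Signal in replicate 2 against signal in replicate 1 (both axes logarithmic, the authors' values) for matched sites of the genome (grey, those of the 23873 that fall within the axes), the 26 of the flanks (blue) and the 11 of the span (red). Dashed lines are the 95th percentiles (30.4 and 32.1): 5 red points and 0 blue points lie in the upper right quadrant.

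Sites 1 to 4 were also in the upper 25% of the span's own signals in both replicates (above 29.6 and 37.6), while site 5 was just under that limit in replicate 2. Raised in only 1 replicate among the matched sites were the kqt-1 site, a site at 6657543 and 6657575 in nhr-173 (24.3 and 40.4), one at 6658735 and 6658641 in nhr-173 (41.7 and 29.4) and one at 6643213 and 6643173 before C56E10.3 (32.6 and 30.6).

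The authors' joint thresholded lists held most of the 5 sites. The main list had 4 peaks in the span, at sites 1, 2, 3 and 5, which is 4 of the 40 summits of the first joint list against 0.528% of that whole list. The conservative list had 6, the 5 sites and a peak at 6653572 beside site 4 with a signal of 21.9, which is 6 of 49 against 0.484%. The main and conservative lists each also held a peak outside the span, at 6593646 in the left flank, at ranks 299 of 610 and 301 of 555. This peak has its summit in a tRNA gene and a non-coding RNA gene, within an intron of a flanking protein-coding gene. Its signal of 79.0 was above those of sites 3 (78.6) and 4 (76.9) and below those of sites 1, 2 and 5. The list of replicate 2 held site 1 only, and that of replicate 1 held none. Ranks were 166, 176, 307 and 263 of 610 for sites 1, 2, 3 and 5 in the main list. By signal, sites 1 and 2 lay just under that list's upper quartile of 91.0, and sites 3 and 5 near its median of 78.7. The global irreproducible discovery rate tells how well a peak's rank agrees between the lists compared, and its −log10 is higher for better agreement. It was 2.36, 2.67, 2.73, 2.71 and 2.53 for sites 1 to 5 in the second joint list. In the first joint list it was 2.83, 2.11, 2.63 and 2.47 for sites 1, 2, 3 and 5.

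The first joint list had no summit from 6644696 to 6656843 (12147 bp), a stretch that holds all of C56E10.3 and site 4. In that stretch replicate 1 listed 9 summits, replicate 2 listed 7 and the second joint list 10, with 2 raised in each. Gaps of at least 8 kb numbered 801 in the first joint list over the genome, and gaps of that size also fell in the flanks in replicate 2 and in both joint lists. The absence of C56E10.3 from the first joint list is thus not an absence of signal in the replicates.

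The marker gene unc-119, which the transgene also carries, was not raised at its own locus on chromosome III (10902641 to 10908935). It had 6 summits in replicate 1 and 5 in replicate 2, with median percentiles of 46.5 and 42.4. The labels do not say from which species the transgene's unc-119 comes.

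Genes elsewhere were ranked by how high their signal was throughout, measured by the smaller of the 2 replicates' median percentiles, over 1608 protein-coding genes with at least 5 summits in each replicate. The highest were pnp-1 (95.6), Y54G2A.11 (90.2), tos-1 (87.7), folt-2 (86.4) and gyf-1 (85.4). Among the 7 genes, clec-266 (51.2) was at rank 424 and kqt-1 (31.5) at rank 1225. The other 5, nhr-120 included, had fewer than 5 summits in a replicate and were not ranked.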

How the data were processed

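ChIP-seq peak lists of 2 replicates were used: 8 lists, of which 4 are ranked and 4 thresholded. Joint lists were made from the alignments of both replicates and the other lists from a single alignment, per the deposited file notes, which also name an input of unstated role for every list. The assembly is ce11, per the labels. The aligner, the peak caller and any use of a control: not given in the sources used here. Signal, as deposited for each peak, is the authors' value on an unstated scale. The deposited score used is the authors' −log10 global irreproducible discovery rate. Read depth is unknown.

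Summits were placed on gene models of Ensembl release 115 (WBcel235, which is ce11), without regard to strand. Chromosome names and lengths were checked against the lists. Summits of the replicates were matched one to one within 150 bp. The running medians, shares (95% Wilson intervals), windows and the ranking of genes are described with the results. No test was made, because there is 1 group. Only the search for a raised stretch and the matching of summits were tested on simulated data. The planted stretch had all its summits set high, unlike the span here, where raised summits lie among ordinary ones. Python 3.11.15, pandas 2.3.3, numpy 2.4.6 and scipy 1.17.1 were used.

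The 7 genes and the rules were chosen with earlier results of these data known. Genes named are the 7, the 3 nearest on each side, genes holding a site raised in both replicates, unc-119 and the 5 genes elsewhere with the highest median percentile in both replicates. Planned sites were to lie in the raised stretch and in its upper 25%. As the planned limit gave no stretch in replicate 1, the span of the genes replaced it after seeing the data. The 75th percentile limit, the count of sites raised in both replicates, the count of genes with raised summits, the contents of the gap, the zinc finger codons, the 3 sequence words and single summits named were also chosen after seeing the data. The 75th percentile limit was picked from a grid of limits and window sizes.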

Additional observations from a re-analysis of the deposited data

How the results depend on the processing

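The share of summits raised in the gene bodies (24.5%) kept its side of the 5.0% background in each alternative: it was 32.7% with the 90th percentile as the limit (10% of all summits), 14.3% with the 99th (1.0%), and 18.5% to 31.8% with 1 replicate left out. The extent of the raised signal depended on the limit. The longest run, of 1 summit in replicate 1 and 3 in replicate 2, became 7 and 7 with the 90th percentile, 0 and 0 with the 99th, 2 and 3 with a running median of 3 summits, 0 and 0 with 15, and 18 and 21 with the 75th percentile and 15. In replicate 2 the first raised summit moved from 6638209 to 6639343 with the 90th percentile and to 6630116 with the 75th and 15. The last moved from 6638209 to 6645629 with the 90th, to 6639343 with 3 summits and to 6658641 with the 75th and 15. Replicate 1 gave no start or end at the planned limit, so none was compared, and each replicate stands alone there. The sites in the upper 25% of the span in both replicates, 4 in number, were 0 under the stricter limit (the upper 10%) and 9 under the looser one (the upper 50%), and 3 to 4 with other matching distances or with a thresholded peak required. They need both replicates, so neither could be left out. Windows of 40 kb with at least 50% raised numbered 0, 1 with windows of 20 kb, and 0 to 1 with 1 replicate left out. The window of 20 kb was on chromosome I and the one from replicate 1 alone on chromosome V, so neither was over these genes. No paired analysis was possible because all samples belong to 1 group.

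The lists give peaks and no reads, so depth, the level between peaks and the input signal at the locus were not measured here. With 3 to 6 summits in most genes, single summits decide a gene's median.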
